A study of Mus musculus with 7 samples.

Results

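The genes described here are 47 genes of DNA replication and of the G1/S transition, from the subunits of the replicative helicase to cyclin E and the E2F transcription factors. They were picked by name from the 55335 gene identifiers of the counts table, with earlier results of these data known. Each of the 47 names matched 1 identifier, and all 47 were among the 17015 genes with enough counts to be tested. By its labels the RNA was that of ILC2s, the type 2 class of innate lymphocytes, which carry no antigen receptor, respond to interleukin 33 through its receptor ST2 and need GATA3 to develop. Flow cytometry took CD45+, lineage-negative, ST2+ cells from hearts of mice. One group held 3 libraries of naive hearts, and the other held 4 libraries of BALB/c hearts transplanted into C57BL/6 mice, a model of acute rejection, and taken 7 days after transplantation.

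Cells of 4 to 7 hearts were pooled for each library, so a replicate is a pool and not an animal. The labels gave no genotype, age or sex, no strain for the naive hearts, and the same time entry for all libraries. They did not say whether the ILC2s of a graft came from the donor or the recipient. No treatment other than transplantation was named. Fewer cycling cells and less RNA of these genes per cell cannot be told apart in such pools.

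DNA replication starts when the origin recognition complex, CDC6 and CDT1 load the MCM2-7 ring onto origins during G1. CDC45 and the GINS complex then join the ring to form the active helicase, and polymerases, the PCNA clamp with its loader RFC, and enzymes of deoxynucleotide synthesis carry out the copying. Many of these genes are transcribed late in G1, when cyclin E with its kinase releases E2F factors from the retinoblastoma proteins, and resting lymphocytes hold most of them low until they re-enter the cycle.

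The naive libraries stood far apart from each other before any gene of replication was considered. Total counts ran from 43591167 to 53044907 in the naive libraries and from 29107326 to 44023726 in the allografts, so that 3 counts corresponded to 0.0566 to 0.103 CPM, the counts scaled to a common library total. Il1rl1, which encodes ST2, was at 744 CPM in naive replicate 1, 6.79 in naive replicate 2 and 344 in naive replicate 3, beside 523 to 756 CPM in the allografts. Gata3 was at 654, 34.8 and 970.2 CPM in naive replicates 1, 2 and 3, beside 706 to 876 in the allografts. The 12 ILC2 markers summed to 198.8 CPM in naive replicate 2, beside 6312 and 8293 in the other naive libraries and 7074 to 7666 in the allografts. In the same library the 12 markers of kidney epithelium summed to 10600 CPM, beside 88.6 and 294.6 in naive replicates 1 and 3 and 84.24 to 128.3 in the allografts. These markers go against the ILC2 label of naive replicate 2, and whether that library holds the sorted cells its label names is in doubt. Results that rest on the naive libraries are therefore given library by library, and with and without each of them.

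The known E2F consensus was read in the promoters, since these genes are classic E2F targets and differed together between libraries as described below. RefSeq promoter sequences (assembly GRCm38.p6, from 250 bases before to 50 bases after an annotated start) were found for 39 of the 47 genes, in 47 windows. The letters searched on both strands were TTTGGCGC, TTTCGCGC, TTTCCCGC and TTTGCCGC. The stretches below show the first match in each window of the helicase loading genes, with any match next to it, in capitals (the motif or its reverse complement, joined where matches overlap), and are written 5′ to 3′ along the gene's strand. They are shown because the ring and its loaders made up 7 of the 16 genes with a match.
Mcm3: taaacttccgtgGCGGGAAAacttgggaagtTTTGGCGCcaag
Mcm5: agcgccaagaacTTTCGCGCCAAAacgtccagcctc
Mcm6: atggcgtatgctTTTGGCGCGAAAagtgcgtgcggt
Mcm7: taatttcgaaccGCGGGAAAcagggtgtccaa
Orc1: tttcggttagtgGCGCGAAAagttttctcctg
Cdc6: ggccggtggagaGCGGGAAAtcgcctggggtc
Cdt1: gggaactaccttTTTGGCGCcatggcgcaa

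The Mcm3 stretch lies at chr1:20820263-20820305 on the minus strand and holds 2 separate matches. The Mcm5 stretch at chr8:75109344-75109379 on the plus strand and the Mcm6 stretch at chr1:128359792-128359827 on the minus strand each hold 2 matches that overlap, TTTCGCGC on one strand and TTTGGCGC on the other. The Mcm7 stretch is at chr5:138172029-138172060 on the minus strand, and a second Mcm7 match, TTTCGCGC, not in that stretch, begins 17 bases after the start. Orc1 is at chr4:108579415-108579446 on the plus strand, Cdc6 at chr11:98908001-98908032 on the plus strand and Cdt1 at chr8:122568035-122568064 on the plus strand. The other genes with matches were E2f2, the polymerase genes Pola1, Pold1 and Pole2, and Gins3, Rfc3, Lig1, Uhrf1 and Dnmt1, and 4 of them are shown here to compare the core letters across roles.
E2f2: ggcggcatatagTTTGGCGCtaa
Pola1: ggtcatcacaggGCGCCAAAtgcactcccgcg
Pole2: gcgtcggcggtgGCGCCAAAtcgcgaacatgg
Uhrf1: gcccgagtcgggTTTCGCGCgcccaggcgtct

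These 4 stretches lie at chr4:136172301-136172323 (plus strand), chrX:93632274-93632305 (minus strand), chr12:69228161-69228192 (minus strand) and chr17:56304116-56304147 (plus strand). Of the 39 genes with a window, 16 (41.0%) held at least 1 match, and 16 of the 47 windows (34.0%) did, beside 2.26% of all 32851 windows in the RefSeq table. Windows of these genes were richer in G and C than all windows, with medians of 60.0% and 52.7%, and among windows with at least 50% G and C the share was 3.26%. Of the 23 matches, 14 began within 100 bases of the start. The whole Mcm6 window, at chr1:128359656-128359955, held 3 matches, of which 2 overlap, and is printed as the fullest example.
Mcm6: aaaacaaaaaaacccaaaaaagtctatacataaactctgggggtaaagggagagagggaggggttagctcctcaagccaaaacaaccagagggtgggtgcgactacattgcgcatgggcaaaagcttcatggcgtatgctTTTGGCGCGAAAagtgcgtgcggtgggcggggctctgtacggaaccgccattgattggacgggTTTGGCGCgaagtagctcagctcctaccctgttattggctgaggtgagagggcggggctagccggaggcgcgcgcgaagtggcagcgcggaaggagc

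For contrast, the letters TTTGAA, the cell cycle homology region of late-cycle promoters, were present for 7 of the 39 replication and G1/S genes (17.9%) and for 14 of 19 mitosis genes with a window (73.7%), beside 20.2% of all genes in the table and 11.5% of genes with a window of at least 50% G and C. The E2F letters were present for 1 of those 19 mitosis genes (5.26%), for 8 of 32 other replication factors with a window (25%), for 6 of 17 other G1/S regulators (35.3%) and for 3 of 16 genes of the replication checkpoint and repair (18.8%), beside 2.60% of all genes in the RefSeq table. The lists nearest to the 47 genes thus also held them more often than all genes. CCAAT was present for 24 of the 39 genes (61.5%) and for 17 of the 19 mitosis genes (89.5%), beside 41.1% of all genes and 38.0% of those with a window of at least 50% G and C. A match describes the sequence and is not evidence of binding.

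Transcripts of the 47 genes were most abundant in naive replicate 1, intermediate in the 4 allografts, and low in naive replicates 2 and 3. Their summed level was 5617 CPM in naive replicate 1, 432.1 in naive replicate 2 and 951.8 in naive replicate 3, and 3850, 3162, 3541 and 3294 CPM in allograft replicates 1 to 4. The allografts thus lay inside the span of the naive libraries. Naive replicate 1 lay above every allograft for 34 of the 47 genes (72.3%), where 27.0% of all 17015 genes did so, and below every allograft for 4 (8.51%), where 37.7% did. Among the 8511 genes with an allograft mean of at least 10 CPM these shares were 32.1% and 36.5%. Naive replicate 2 lay below every allograft for 46 of the 47 genes, where 51.9% of all genes and 67.5% of the genes at 10 CPM did. Naive replicate 3 did for 43, where 48.6% and 49.3% did. The full order, with naive replicate 1 above and the other naive libraries below every allograft, held for 29 of the 47 genes and for 8.23% of all genes.

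**Figure D1:**
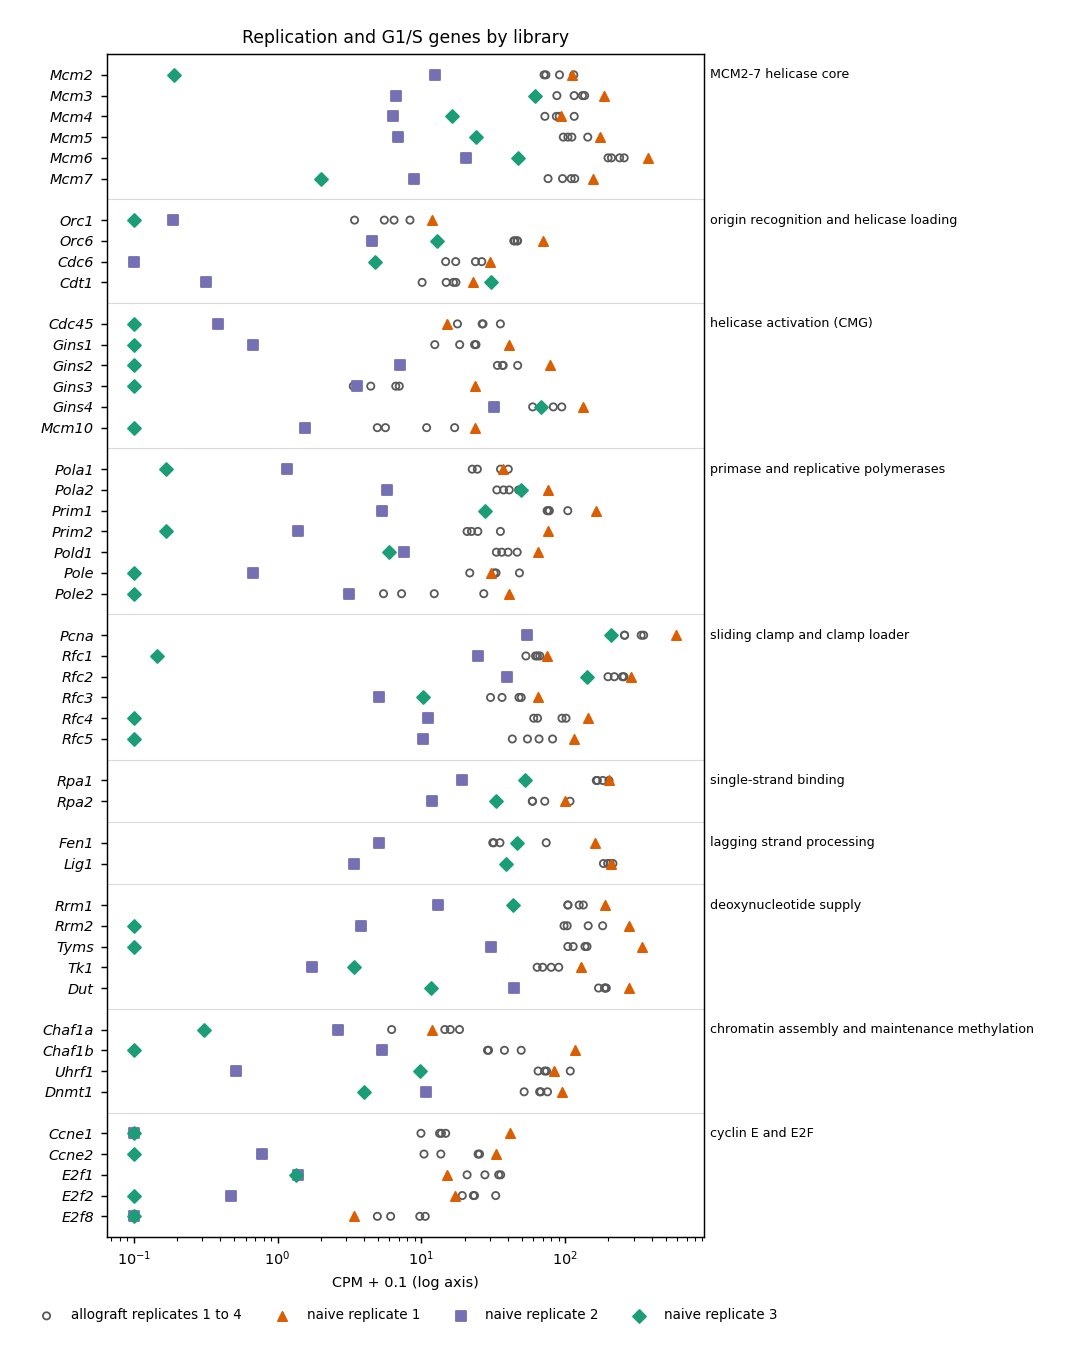
Level of each of the 47 genes in the 7 libraries, as CPM plus 0.1 on a log axis, grouped by role; open circles are the 4 allografts and filled symbols the 3 naive libraries, and a symbol at 0.1 is a count of 0. Naive replicate 1 sits at or to the right of the allografts for most genes, while naive replicates 2 and 3 sit to the left, and 17 genes are at 0 in naive replicate 3.

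No gene of the 47 passed the test between the allograft and the naive libraries. In edgeR's quasi-likelihood test with Benjamini-Hochberg adjustment over all 17015 genes, 6 genes in all passed an adjusted p of 0.05 (0.0353%), so a count of 0 among 47 does not differ from this background. The lowest adjusted p of the 47 was 0.455. At an unadjusted p under 0.05, 1 of the 47 genes remained, E2f1, where 10.3% of all genes did. DESeq2 gave a p for 36 of the 47 genes and left the other 11 without one. Those 11 were Mcm5, Mcm6, Mcm7, Orc6, Gins1, Prim2, Rrm2, Tk1, Uhrf1, Ccne1 and E2f2, and its calls do not cover them. DESeq2 called 0 of the 36, with a lowest adjusted p of 0.116, where it called 6.66% of the 15197 genes with a p. At an unadjusted p under 0.05 it left 1 of the 36, where 16.8% of those genes were. The fitted log2 fold change, allograft over naive, was above 0 for 37 of the 47 genes, beside 49.4% of all genes, with a median of 0.58 beside -0.01 over all genes. Its standard error (SE) had a median of 1.22 on the log2 scale, beside 0.951 over all genes. For edgeR the SE is approximate. It was computed as the absolute log2 fold change over the square root of the F statistic of the test.

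The result turned on naive replicate 1. Without that library, 46 of the 47 genes had a fold change above 0, with a median of 2.80 beside 0.04 over all genes. Then 2 genes rose past an adjusted p of 0.05 in edgeR's test, Ccne1 and Tk1, where 0.510% of the 18833 genes tested did. The unadjusted p was then under 0.05 for 29 of the 47 genes, where 17.6% of all genes were. The naive side of that fit was naive replicate 2, whose label is in doubt, and naive replicate 3. In naive replicate 3, 20 of the 47 genes had 3 counts or fewer. Over all genes tested, log2 CPM of naive replicate 1 correlated with that of the allografts at 0.886 to 0.9. The same correlations were 0.666 to 0.689 for naive replicate 2 and 0.795 to 0.809 for naive replicate 3. Without naive replicate 2 the median of the 47 was 0.11, below the 0.23 over all genes, with 28 of 47 genes above 0. Without naive replicate 3 it was 0.17, beside 0.05 over all genes, with 30 above 0. Neither fit called any of the 47, where 3.10% and 0.0372% of all genes were called. Leaving out any 1 allograft library kept the median between 0.52 and 0.64 and called 0 of the 47, but each of these 4 fits called 0 of all genes tested.

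**Figure D2:**
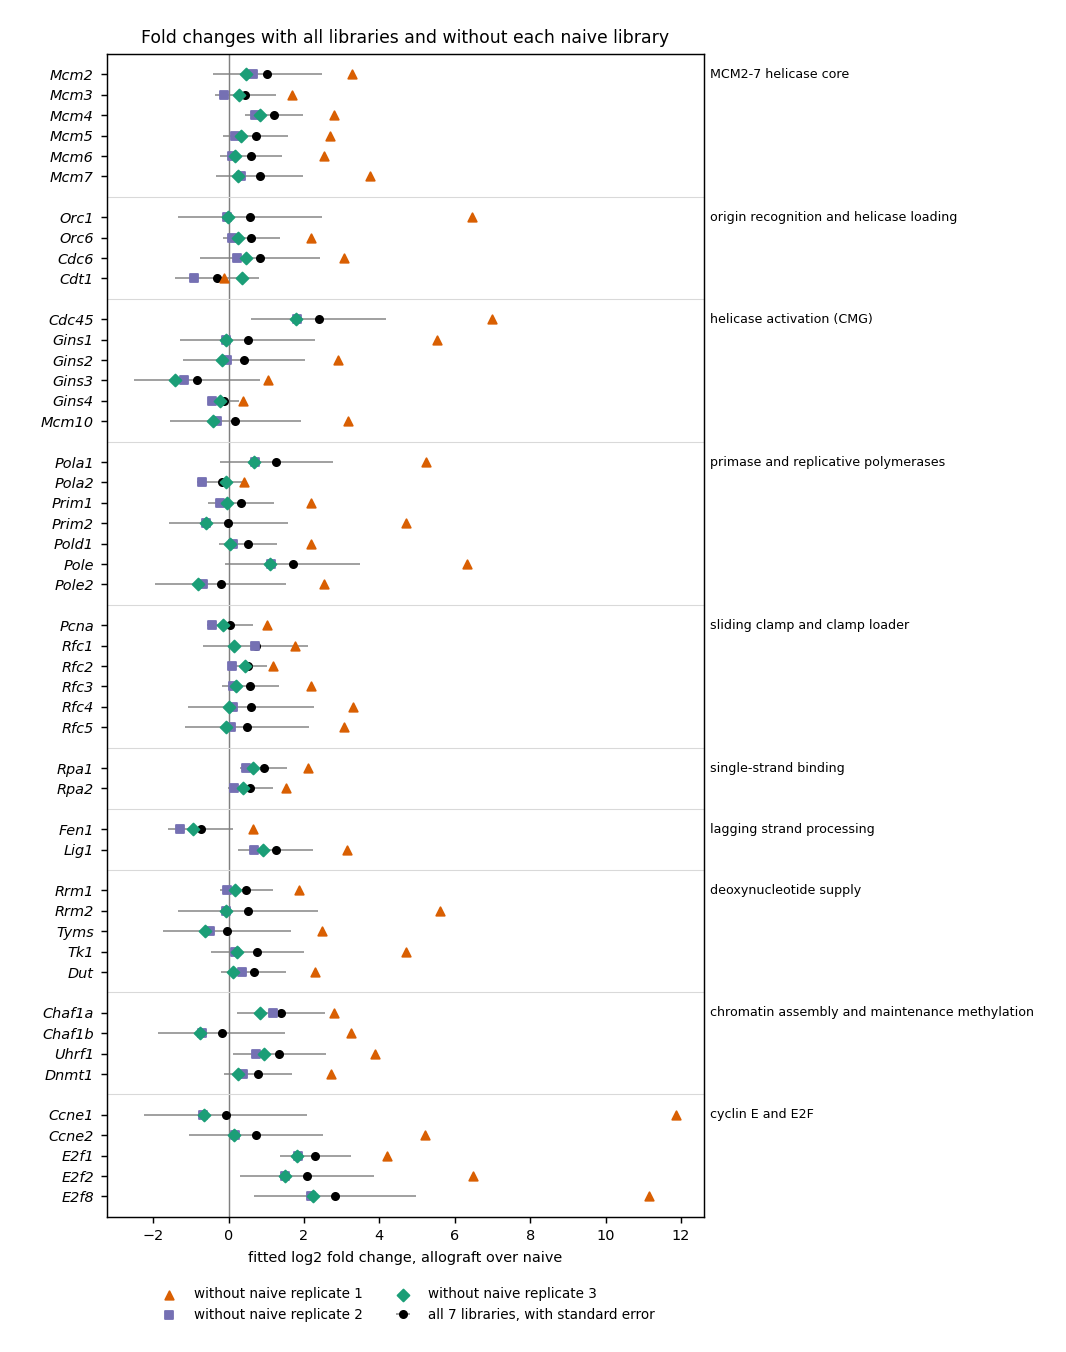
Fitted log2 fold change of each gene, allograft over naive, with all 7 libraries (black, bar of 1 standard error) and without each naive library in turn (coloured symbols). Without naive replicate 1 the median is 2.80 and 46 of 47 points are above 0; the fitted values of Ccne1 and E2f8, which are at 0 in both remaining naive libraries, depend on the prior count of the fit and are no measured size.

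The MCM2-7 ring, the motor of the replicative helicase, was measured in all 6 of its subunits. Mcm6, the most abundant of them per length, was at 374 CPM in naive replicate 1, 20.4 in naive replicate 2 and 47 in naive replicate 3, and at 257, 210.0, 199 and 239 CPM in the allografts. The fitted log2 fold change of Mcm6 was 0.59 (SE 0.82, adjusted p = 0.893, edgeR). All 4 allografts lay below naive replicate 1 and well above the other naive libraries.

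Mcm4 had the largest fold change of the ring, from naive levels of 93.5, 6.26 and 16.3 CPM and 90.9, 86.8, 116 and 72.2 CPM in the allografts. Naive replicate 1 lay inside the allograft range, and the log2 fold change was 1.20 (SE 0.76, adjusted p = 0.708, edgeR). Mcm3 had the smallest, 0.45 (SE 0.80, adjusted p = 0.930, edgeR), from 187, 6.59 and 61.2 CPM in the naive libraries and 116, 137, 87.5 and 132 CPM in the allografts. In naive replicate 3 it stood at 0.519 of its allograft mean, the highest such ratio of the ring.

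The ring holds its subunits as equal partners, but in naive replicate 3 their transcripts were reduced unevenly. In that library 30.2% of all genes had 3 counts or fewer, as did 8.07% of genes with at least 10 CPM in the allografts. Uneven subunits in naive replicate 3, here and in the groups below, may therefore not reflect the cells. Mcm2 had 4 counts there, or 0.0918 CPM, and stood at 0.00105 of its allograft mean, and Mcm7, at 1.90 CPM, at 0.0191. In naive replicate 2 the same ratio ran more evenly over the 6 genes, from 0.0559 for Mcm3 to 0.140 for Mcm2. In naive replicate 1 it ran from 1.02 for Mcm4 to 1.65 for Mcm6, so no ring gene was below its allograft mean there.

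Of the genes that load the ring, Orc6 of the origin recognition complex was the steadiest of all 47 across allografts, with 46.6, 46.3, 43.9 and 44.5 CPM (45.3 ± 1.33, SD, n = 4). The naive libraries gave 70.2, 4.44 and 12.7 CPM, and the log2 fold change of Orc6 was 0.60 (SE 0.75, adjusted p = 0.874, edgeR). For Cdc6, the loading ATPase, the naive libraries gave 29.8, 0 and 4.68 CPM and the allografts 23.7, 17.2, 26.2 and 14.7 CPM. Its fitted log2 fold change was 0.84 (SE 1.59, adjusted p = 0.936, edgeR), and a count of 0 in naive replicate 2 allows up to 0.0659 CPM there, for counting error only.

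Cdt1, which delivers the ring together with CDC6, broke the order. It was at 22.9 CPM in naive replicate 1, 0.220 in naive replicate 2 and 30.5 in naive replicate 3, and at 14.8, 10.03, 17.3 and 16.6 CPM in the allografts. Both naive replicates 1 and 3 were above every allograft, and the log2 fold change was -0.32 (SE 1.12, adjusted p = 0.970, edgeR). Cdt1 was 1 of only 2 genes among the 47 with naive replicate 3 above every allograft, the other being Pola2, where 26.9% of all genes were. Orc1, the largest subunit of the origin recognition complex, was low throughout, with 11.7 CPM in naive replicate 1, 0.0879 and 0 in the others, and 3.33 to 8.24 CPM in the allografts.

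In the helicase activation group, Cdc45 differed from its partners. CDC45 joins MCM2-7 and GINS in the moving helicase. Cdc45 was at 14.9, 0.286 and 0 CPM in the naive libraries and at 35.4, 26.8, 17.7 and 26.4 CPM in the allografts. Every allograft was above every naive library, and the log2 fold change was 2.39 (SE 1.80, adjusted p = 0.755, edgeR).

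The 4 GINS subunits had naive replicate 1 above every allograft. Gins4 was at 133, 31.7 and 67.9 CPM in the naive libraries and at 94.7, 67.9, 82.7 and 59.4 CPM in the allografts. Naive replicate 3 lay inside the allograft range, and the log2 fold change was -0.13 (SE 0.41, adjusted p = 0.967, edgeR), with the lowest SE of all 47 genes. Gins3 was at 23.4, 3.50 and 0 CPM in the naive libraries and at 6.54, 4.35, 6.93 and 3.26 CPM in the allografts.

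Gins3 had the lowest log2 fold change of the 47, -0.85 (SE 1.67, adjusted p = 0.938, edgeR), and naive replicate 1 stood 4.45-fold above its allograft mean, the largest such ratio. Naive replicate 2 lay inside the allograft range for Gins3 alone among the 47. In naive replicate 3 the other GINS genes, Gins1, Gins2 and Gins3, had 0 counts, which allows up to 0.0688 CPM, while Gins4 stood there at 0.892 of its allograft mean. Mcm10, a factor that helps start the helicase, was at 23.4, 1.45 and 0 CPM in the naive libraries and at 4.84 to 16.9 CPM in the allografts.

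The polymerases comprise the primase, which lays down primers, and polymerases alpha, delta and epsilon. Prim1, the catalytic primase subunit, was at 164, 5.19 and 27.8 CPM in the naive libraries and at 104, 76.6, 74.9 and 77.6 CPM in the allografts. The fitted log2 change of Prim1 was 0.33 (SE 0.87, adjusted p = 0.956, edgeR). Allograft replicate 1 stood above the other allografts, which lay between 74.9 and 77.6 CPM.

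Pole, the catalytic subunit of the leading-strand polymerase epsilon, was at 30.5, 0.572 and 0 CPM in the naive libraries and at 21.6, 33.0, 48.0 and 32.0 CPM in the allografts. Naive replicate 1 was inside the allograft range, and the log2 fold change was 1.70 (SE 1.78, adjusted p = 0.842, edgeR). Its accessory subunit Pole2 was at 40.9, 3.03 and 0 CPM in the naive libraries and at 12.2, 7.19, 27.1 and 5.36 CPM in the allografts, the widest relative spread of the 47 between allografts (coefficient of variation, CV, 76.0%). The log2 fold change of Pole2 was -0.21 (SE 1.73, adjusted p = 0.992, edgeR), so catalytic and accessory subunit had fold changes of opposite sign, neither past the test.

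Subunits of polymerase alpha and primase were uneven in naive replicate 3. Pola1, the catalytic subunit of polymerase alpha, had 3 counts there and Prim2, the accessory primase subunit, also 3, while Pola2, the subunit that tethers primase, had 49.0 CPM, above every allograft (33.4 to 47.4 CPM). In that library Pola1 stood at 0.00225 and Pola2 at 1.23 of the respective allograft mean. Pold1, the catalytic subunit of the lagging-strand polymerase delta, was at 64.9, 7.45 and 5.85 CPM in the naive libraries and at 33.2 to 46.3 CPM in the allografts.

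Pcna, which encodes the ring that tethers polymerases to DNA, had the highest allograft level per length of the 47 genes. It was at 594, 53.9 and 208 CPM in the naive libraries and at 352, 259, 338 and 259 CPM in the allografts. The naive values straddled the allografts, and the log2 fold change was 0.03 (SE 0.61, adjusted p = 0.996, edgeR), its sign turning to -0.07 with DESeq2's size factors. Naive replicate 1 was nonetheless 1.97-fold above the allograft mean, and naive replicate 2 at 0.179 of it.

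The clamp loader opens PCNA and closes it around DNA, and its 5 subunits were uneven in naive replicate 3. Rfc1, the large subunit, was at 75.3, 24.8 and 0.0459 CPM in the naive libraries, the last from 2 counts, and at 62.1, 64.1, 53.3 and 66.6 CPM in the allografts. The fitted change of Rfc1 on the log2 scale was 0.72 (SE 1.39, adjusted p = 0.936, edgeR). In naive replicate 3, Rfc4 and Rfc5 were at 0, while Rfc2, at 141 CPM, stood at 0.611 and Rfc3, at 10.2 CPM, at 0.25 of the respective allograft mean. In the allografts Rfc4 was at 60.4 to 101 CPM and Rfc5 at 42.8 to 81.7 CPM.

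Rpa1 and Rpa2 encode subunits of the protein that coats single-stranded DNA, and both had naive replicate 1 inside the allograft range. Rpa1 was at 201, 19.2 and 52.2 CPM in the naive libraries and at 202, 168, 183 and 165 CPM in the allografts, and the fitted log2 change was 0.93 (SE 0.63, adjusted p = 0.730, edgeR). Rpa2 was at 99.5, 11.8 and 33.1 CPM in the naive libraries and at 108, 59.0, 59.3 and 72.1 CPM in the allografts, and the fitted log2 change was 0.57 (SE 0.60, adjusted p = 0.842, edgeR). RPA also serves DNA repair outside S phase.

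Okazaki fragments are trimmed by the flap nuclease FEN1 and joined by ligase 1, and the genes of these enzymes differed. Lig1 was at 209, 3.32 and 38.5 CPM in the naive libraries and at 206, 215, 185 and 198 CPM in the allografts, and its log2 fold change was 1.25 (SE 0.99, adjusted p = 0.767, edgeR). Fen1 was at 160.2, 5.01 and 45.9 CPM in the naive libraries and at 35.1, 31.8, 73.8 and 31.3 CPM in the allografts, and the fitted log2 change was -0.73 (SE 0.86, adjusted p = 0.866, edgeR). Naive replicate 1 lay inside the allograft range for Lig1 and was 3.73-fold above their mean for Fen1. Of the exon bases of Fen1, 84.2% are shared with genes on the opposite strand, Gm10143 and Tmem258, and the use of strand in counting was not given, so the Fen1 level is uncertain. The same holds for Gins2, with 67.3% shared with Gse1, and for Chaf1a, with 52.5% shared with Ubxn6.

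All 5 genes of deoxynucleotide supply had naive replicate 1 above and the other naive libraries below every allograft. Tk1, the thymidine kinase of the salvage pathway, was at 129, 1.63 and 3.30 CPM in the naive libraries and at 79.9, 69.7, 90.2 and 63.8 CPM in the allografts. With all libraries its log2 fold change was 0.77 (SE 1.25, adjusted p = 0.918, edgeR), and without naive replicate 1 it was 4.70 (SE 0.42, adjusted p = 0.0217, edgeR). Tyms, the thymidylate synthase, was at 343, 30.4 and 0 CPM in the naive libraries and at 137, 114, 142 and 104 CPM in the allografts.

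The log2 fold change of Tyms was -0.05 (SE 1.70, adjusted p = 0.998, edgeR), and it was 2.48 without naive replicate 1. Dut, the dUTPase that keeps uracil out of DNA, was even across the allografts at 193, 171, 188 and 190.2 CPM, and at 276, 43.9 and 11.6 CPM in the naive libraries. The fitted log2 change of Dut was 0.66 (SE 0.85, adjusted p = 0.881, edgeR). The subunits of ribonucleotide reductase parted in naive replicate 3, where Rrm1, at 43.6 CPM, stood at 0.373 of its allograft mean and Rrm2, the subunit that limits S-phase activity, had 0 counts, while the allografts gave 104 to 134 CPM for Rrm1 and 98.2 to 182 for Rrm2.

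Chromatin is rebuilt behind the fork by CAF-1, and DNA methylation is copied by DNMT1 with its partner UHRF1. Chaf1b, a CAF-1 subunit, was at 117, 5.25 and 0 CPM in the naive libraries and at 37.8, 28.8, 49.4 and 29.2 CPM in the allografts, and the fitted log2 change was -0.18 (SE 1.69, adjusted p = 0.992, edgeR). Chaf1a, the large subunit, was at 11.7, 2.53 and 0.206 CPM in the naive libraries and at 14.5, 18.3, 6.12 and 15.8 CPM in the allografts, and the fitted log2 change was 1.39 (SE 1.17, adjusted p = 0.786, edgeR). Naive replicate 1 was 3.21-fold above the allograft mean for Chaf1b and inside the allograft range for Chaf1a.

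Uhrf1 was at 83.9, 0.418 and 9.73 CPM in the naive libraries and at 64.8, 74.2, 71.9 and 108 CPM in the allografts. The log2 fold change of Uhrf1 was 1.35 (SE 1.22, adjusted p = 0.809, edgeR), with naive replicate 1 inside the allograft range. Dnmt1 was at 94.98, 10.7 and 3.88 CPM in the naive libraries and at 51.8 to 75.3 CPM in the allografts, so naive replicate 1 was the highest library.

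Among the regulators of the G1/S switch, the 3 E2F genes of the set had every allograft above every naive library. Over all genes, 12.5% did so. E2F genes outside the set, E2f3, E2f4, E2f5, E2f6 and E2f7, overlapped between the groups. Their fitted log2 fold changes were 0.73, -0.33, -1.81, -1.55 and 0.10 in that order (edgeR). E2f1, an activator of S-phase genes on chromosome 2 (154559407 to 154569892, minus strand, GRCm38), was at 14.9, 1.297 and 1.24 CPM in the naive libraries and at 35.5, 20.7, 27.6 and 34.4 CPM in the allografts. The lowest allograft was above naive replicate 1, the highest of the naive libraries. The E2f1 log2 fold change was 2.30 (SE 0.94, unadjusted p = 0.0424, adjusted p = 0.455, edgeR), and it was 4.21 without naive replicate 1 (adjusted p = 0.0512, edgeR), so it did not pass the adjusted threshold in either fit.

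E2f2, the other activator E2F of the set, was at 17.1, 0.374 and 0 CPM in the naive libraries and at 22.9, 23.3, 19.2 and 32.8 CPM in the allografts. E2f8, a repressor that E2F1 induces, was at 3.32, 0 and 0 CPM in the naive libraries and at 6.02, 10.6, 4.85 and 9.65 CPM in the allografts. The E2f8 log2 fold change of 2.82 was the highest of the 47 (SE 2.15, adjusted p = 0.760, edgeR). Against naive replicates 2 and 3 alone, at a floor of 3 counts per library, the E2f8 allograft mean was at least 115-fold higher.

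Cyclin E, the partner of CDK2 at the G1/S switch, had naive replicate 1 as its highest library. Ccne1 was at 41.1 CPM in naive replicate 1, 0 in both other naive libraries, and 13.3, 9.84, 14.7 and 13.7 CPM in the allografts. With all libraries its log2 fold change was -0.08 (SE 2.17, adjusted p = 0.998, edgeR). Without naive replicate 1 Ccne1 rose with an adjusted p of 0.0415 (edgeR), and its allograft mean was at least 191-fold above the floor of 3 counts per library. Ccne2 was at 32.8, 0.681 and 0 CPM in the naive libraries and at 10.3 to 25.3 CPM in the allografts, and naive replicate 1 was above them all.

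Non-overlap between the groups was thus limited to Cdc45, E2f1, E2f2 and E2f8, all 4 with the allografts above. Over all genes, every allograft lay above every naive library for 12.5%, so 4 of 47 is a share no larger than this background. No gene of the 47 had every allograft below every naive library, where 2.15% of all genes did. Without naive replicate 1, 42 of the 47 had every allograft above both other naive libraries, where 26.4% of all genes did, and the exceptions were Cdt1, Gins3, Gins4, Pola2 and Fen1. Without naive replicate 2, Cdt1 and Pola2 had every allograft below both other naive libraries, where 7.15% of all genes did.

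**Figure D3:**
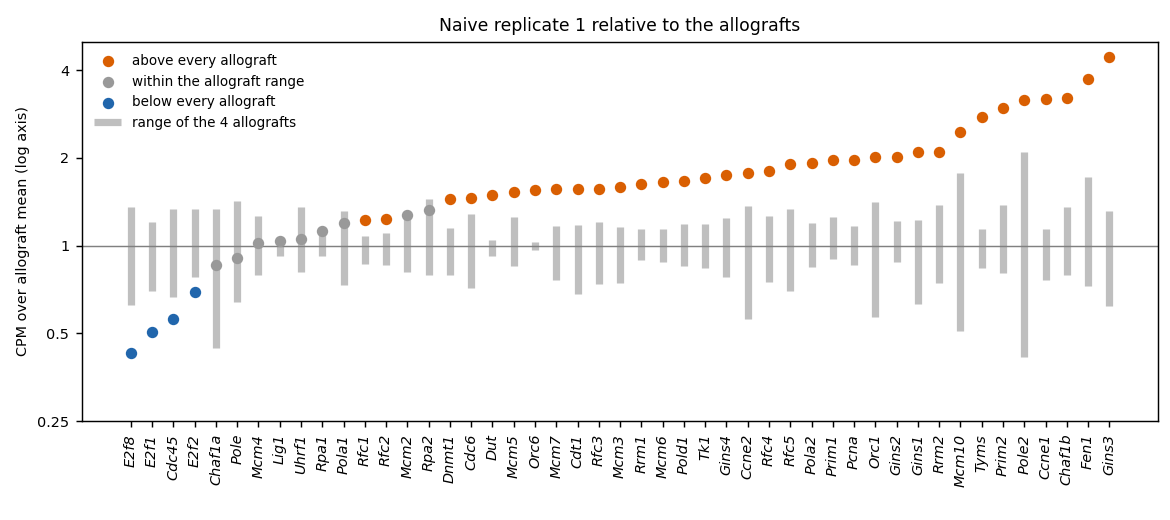
Ratio of naive replicate 1 to the allograft mean for each of the 47 genes in order, on a log axis, with grey bars for the range of the 4 allografts over the same mean. The 34 genes above every allograft have ratios of 1.22 to 4.45, and the 4 genes below every allograft are E2f8, E2f1, Cdc45 and E2f2.

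Naive replicate 1 exceeded the allografts unevenly across the set. Its ratio to the allograft mean had a median of 1.59 over the 47 genes, beside 0.79 over all genes and 0.964 over the 8511 genes with an allograft mean of at least 10 CPM. Among the 34 genes above every allograft the median ratio was 1.79. The highest ratios belonged to Gins3, Fen1, Chaf1b, Ccne1 and Pole2, at 4.45, 3.73, 3.21, 3.19 and 3.15, and the lowest to E2f8, E2f1 and Cdc45, at 0.427, 0.505 and 0.561.

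Low values in the other naive libraries took different forms. In naive replicate 2 the ratio to the allograft mean had a median of 0.098, beside 0.555 over all genes, and 3 of the 47 genes had 3 counts or fewer. In naive replicate 3 the median was 0.0419, beside 0.552 over all genes, and 20 of the 47 genes (42.6%) had 3 counts or fewer, where 30.2% of all genes and 8.07% of the genes with at least 10 CPM in the allografts did. Of those 20 genes, 17 had exactly 0 counts. Their allograft means ran from 5.27 to 132 CPM with a median of 26.1, beside a median of 79.8 for the other 27 genes, so genes at or near 0 included abundant ones such as Rrm2 and Tyms. The other 27 genes stood in naive replicate 3 at 0.00105 to 2.08 of their allograft mean. The cause of the values at or near 0 was not tested, so unequal levels of subunits in that library may not reflect the cells.

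Among the 4 allografts the CV of CPM of the 47 genes had a median of 22.5%, with 2.93% for Orc6 and 76.0% for Pole2 as extremes. The median was 30.1% over all genes and 19.5% over genes with at least 10 CPM in the allografts. Allograft replicate 1 was the highest of the 4 for 22 genes (46.8%), where 25.9% of all genes were highest there, and allograft replicate 2 the lowest for 20 (42.6%), where 22.7% were.

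**Figure D4:**
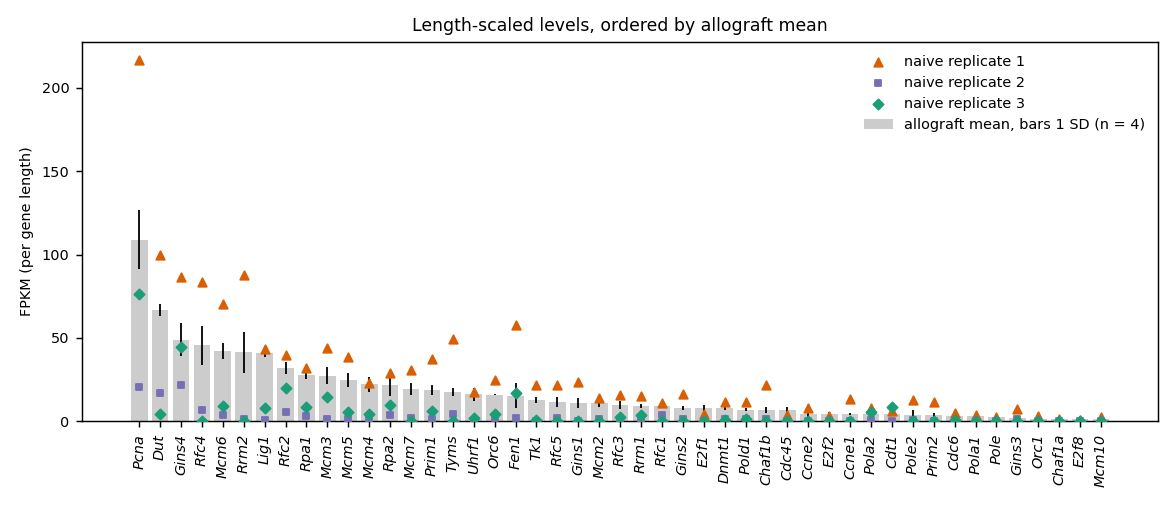
Length-scaled level (FPKM) of each gene, ordered by the mean of the 4 allografts (grey bars, with 1 SD), with each naive library as a coloured symbol. Pcna leads at 109 and the bars go down to 1.06 for Mcm10, while naive replicate 1 is above the bar for most genes.

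Levels can be compared between genes only per length, and the deposited FPKM values (fragments scaled to gene length and library size) allow that. In the allografts Pcna was highest at 109 ± 17.8 FPKM (SD, n = 4), followed by Dut at 66.7 ± 3.55, Gins4 at 49.0 ± 9.93, Rfc4 at 45.5 ± 11.8, Mcm6 at 42.1 ± 4.82, Rrm2 at 41.3 ± 12.2 and Lig1 at 40.9 ± 2.54. Pcna and Dut were apart from the genes after them by more than 1 of their own SD. Each gene from Gins4 to Rrm2 lay within 1 of its own SD of the gene after it. Lig1 was followed by Rfc2 at 31.7 ± 3.66, more than 1 SD away. The lowest were Gins3, Orc1, Chaf1a, E2f8 and Mcm10, at 1.67, 1.45, 1.33, 1.23 and 1.06 FPKM. The MCM2-7 genes ran from 10.9 FPKM for Mcm2 to 42.1 for Mcm6, and E2f1, at 8.10 ± 1.86 FPKM, was above E2f2 at 4.34 ± 1.03 and E2f8 at 1.23 ± 0.439.

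Genes of neighbouring pathways, listed by name, were compared with the 47 in the same fit. Of 39 other replication factors, 24 other G1/S regulators, 24 genes of the replication checkpoint and repair and 22 mitosis genes, 0 passed an adjusted p of 0.05 (edgeR) in either direction. Fold changes were above 0 for 30, 16, 19 and 19 of them, with medians of 0.45, 0.30, 0.51 and 0.65, beside 0.58 for the 47 genes. The other replication factors with the smallest p were Rnaseh2a, a subunit of ribonuclease H2, with a log2 fold change of 1.159 (adjusted p = 0.238, edgeR), and Ssrp1, a subunit of the histone chaperone FACT, with 1.58 (adjusted p = 0.341, edgeR). DESeq2 called 2 genes of these lists, Rnaseh2a and the E2F partner gene Tfdp2, whose log2 fold change in edgeR was -0.98 (adjusted p = 0.388).

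The order of the libraries was similar in the mitosis genes. These 22 genes summed to 2227 CPM in naive replicate 1, 22.42 in naive replicate 2 and 185.1 in naive replicate 3, and to 1311, 1438, 1328 and 1443 CPM in the allografts. Naive replicate 1 was above every allograft for 16 of them, naive replicate 2 below every allograft for 22 and naive replicate 3 for 19. Of the 39 other replication factors, naive replicate 1 was above every allograft for 25, naive replicate 2 below for 37 and naive replicate 3 below for 28. The same counts were 10, 21 and 17 of the 24 genes of checkpoint and repair and 12, 19 and 12 of the 24 other G1/S regulators. Over all genes the shares were 27.0%, 51.9% and 48.6%. The other G1/S regulators summed to 2560, 603 and 2686 CPM in the naive libraries and to 2217 to 2480 in the allografts. Their sum was thus highest in naive replicate 3. E2f7, the close relative of E2f8, was at 24.5, 0 and 0 CPM in the naive libraries and at 5.60 to 11.2 CPM in the allografts, so naive replicate 1 was above the allografts for E2f7 and below them for E2f8.

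**Figure D5:**
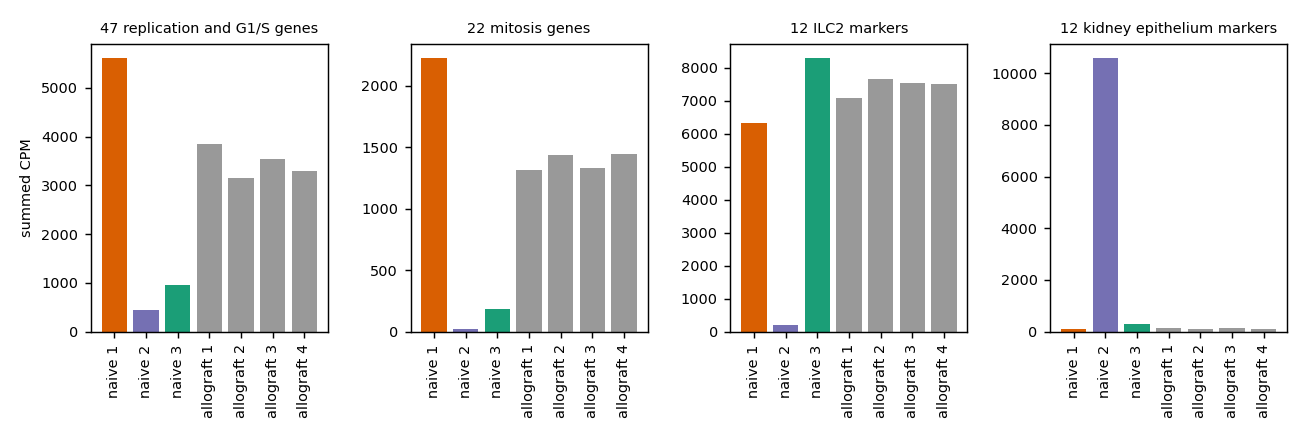
Summed CPM in each library for the 47 replication and G1/S genes, 22 mitosis genes, 12 ILC2 markers and 12 kidney epithelium markers; each panel has its own axis from 0. Replication and mitosis sums are highest in naive replicate 1 and lowest in naive replicate 2, which also has the lowest ILC2 sum, 198.8, and a kidney sum of 10600.

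Markers of other cells moved with the same libraries. In naive replicate 2, where the 47 genes were lowest in sum, ILC2 markers were low and kidney, endothelial (608.5 CPM for 10 markers) and erythroid (3037 CPM for 10 markers) sums were highest. Naive replicate 3 had an ILC2 sum of 8293 CPM, above every allograft, with low levels of the 47 genes. Rora alone gave 2993 CPM of that sum, beside 1266 to 1638 CPM in the allografts. Of the 12 ILC2 markers, 4 lay below every allograft in naive replicate 3, namely Il1rl1, Klrg1, Areg and Il13. T cell markers, of which 12 were listed, summed to 579.3, 53.77 and 1715 CPM in the naive libraries and to 1365 to 1572 CPM in the allografts. Most of the allograft sum came from Trbc1, Trbc2, Lat and Cd3g, with allograft means of 522, 439, 295 and 193 CPM. The other listed T cell markers had allograft means of 0.103 (Cd5) to 19.3 CPM (Cd28), among them Cd3e at 0.569, Cd4 at 0.180 and Cd8a at 0.674. B cell markers, 10 in number, summed to 265.3, 44.69 and 249.4 CPM in the naive libraries and to 325.1 to 495.2 CPM in the allografts, where Ighm alone had a mean of 326 CPM. Myeloid markers, 15 in number, summed to 15.16, 325.6 and 501 CPM in the naive libraries and to 228.9 to 357.2 CPM in the allografts, where Lyz2 alone had a mean of 147 CPM. The 10 lung epithelium markers summed to 6.429, 235.9 and 718.4 CPM in the naive libraries and to 279.6 to 718.4 CPM in the allografts. In naive replicate 2, Napsa alone gave 234.0 CPM of that sum, while Sftpc, Sftpa1 and Scgb1a1 were at 0. The 10 fibroblast markers summed to 3.638, 151.5 and 115.7 CPM in the naive libraries and to 44.57 to 87.61 CPM in the allografts. Naive replicate 1, with the highest replication sum, thus had the lowest myeloid, lung and fibroblast sums. Other lists went the other way. Mast cell or basophil markers, 10 in number, summed to 443.6, 105.4 and 751.9 CPM in the naive libraries and to 331.0 to 363.1 CPM in the allografts. Erythroid markers summed to 851.3 and 778.3 CPM in naive replicates 1 and 3 and to 524.3 to 648.3 CPM in the allografts. Of 10 cardiomyocyte markers, 6 were at 0 in all naive libraries and 4 at 0 in all allografts. The part of these cells in the levels of the 47 genes was not tested.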

How the data were processed

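Libraries labelled as ILC2s, from 3 pools of naive hearts and 4 of allografts, were analysed; markers of 1 of them, naive replicate 2, go against that label. The authors deposited whole-number counts per gene and FPKM values (scaled to gene length and depth) for 55335 identifiers; the ratio of both tables differed between libraries only by a library factor. Per the labels' protocols, cDNA was amplified over its full length with reagents made for single cells. The submitters' processing notes name FastQC 0.11.5, STAR 2.5.3a, StringTie 1.3.1c, DESeq2 1.16.1 and the build mm10; the counter, its annotation and its use of strand are not given in the sources used here, so antisense reads may be mixed in.

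Counts were fitted with edgeR 4.0.16 (R 4.3.3; TMM scaling, filterByExpr, quasi-likelihood test, Benjamini-Hochberg adjustment over all tested genes, threshold 0.05). CPM is the count scaled to a common library total. DESeq2 1.42.0 and limma 3.58.1 (voom with quality weights), other scalings and filters, a replicate block and leaving out each library were alternatives. The fits were tested on simulated data. Titles of the samples gave group and replicate number, and replicates are described as biological in the series' design text. Overlaps and positions came from GENCODE M21 (GRCm38), promoters from RefSeq. A count of 3 served as the floor, covering counting error only.

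Per role, values in every library are given for the gene highest in FPKM and those with the largest and smallest fold change, beside others the text describes; of other lists, genes past the threshold or up to 2 with the smallest p. The 47 genes, the lists and these rules were chosen with earlier results of these data known.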

Additional observations from a re-analysis of the deposited data

Results flagged for a closer look

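In the 4 allografts, 57 values were examined for a library far from the others, and 2 stood apart, where about 1 in 20 such groups, or 2.85 here, would by chance. Prim1, the primase subunit, was at 104.3 CPM in allograft replicate 1, with the other allografts between 74.89 and 77.61. Fen1, the flap nuclease, was at 73.79 CPM in allograft replicate 3, with the others between 31.3 and 35.12; most Fen1 exon bases overlap genes on the opposite strand. Whether those genes' reads contribute to the Fen1 value was not tested.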

How the results depend on the processing

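Of 351 values of 27 named genes under the alternatives, 315 kept their sign and side of the threshold, 35 changed sign and 1 (Tk1 without naive replicate 1) passed the threshold with its sign kept; Ccne1 also passed it without that library, with its sign changed; 16 of the 27 genes never changed sign. DESeq2's size factors moved the median of all genes from -0.01 to -0.20 and that of the 47 to 0.50, and turned Pcna to -0.07, as did DESeq2's own test. That test called 1012 genes, 633 higher, with 1 call each among other replication factors and other G1/S regulators. Limma voom called 1 gene, 0 higher. Its medians were 1.53 for the 47 genes, beside 0.66 over all genes, 1.17 for checkpoint and repair and 2.57 for mitosis. It turned Cdt1 (0.48), Gins3 (0.47), Pole2 (1.03), Tyms (2.16), Chaf1b (1.75) and Ccne1 (3.39). Correlations of same-numbered libraries' deviations were 0.017, -0.020 and 0.036. They show no pairing by number, but with 3 naive libraries that differ this widely they cannot exclude one. A replicate block on replicates 1 to 3 called 0 genes, 0 higher. Its median was 2.05 for the 47, beside 0.53 over all genes. Medians were 0.99, 0.95, 1.35 and 3.96 for other replication factors, G1/S regulators, checkpoint and repair and mitosis. The block turned Cdt1 (0.65), Gins3 (0.62), Gins4 (0.08), Pole2 (1.27), Fen1 (0.24), Tyms (1.87), Chaf1b (2.20) and Ccne1 (8.38). Leaving out each library in turn gave 0 to 560 genes called (0 to 542 higher, 560 without naive replicate 2, 107 without naive replicate 1) and 0 to 2 of the 47. Medians of the 47 were 0.11 to 2.80, beside -0.05 to 0.23 over all genes. Non-overlapping genes were 4 to 42 above and 0 to 2 below. It gave other replication factors 0 to 1 calls and medians of 0.15 to 1.19, G1/S regulators 0.05 to 0.97, checkpoint and repair 0 to 3 calls and 0.19 to 1.54, and mitosis 0 to 5 calls and 0.05 to 5.19. Fold changes then spanned -0.11 to 1.68 for Mcm3, -0.91 to 0.35 for Cdt1, -1.43 to 1.04 for Gins3, -0.44 to 0.38 for Gins4, -0.22 to 2.19 for Prim1, -0.86 to 2.54 for Pole2, -0.44 to 1.03 for Pcna, -1.29 to 0.64 for Fen1, -0.63 to 2.48 for Tyms, -0.76 to 3.24 for Chaf1b and -0.69 to 11.88 for Ccne1. With genes at the floor set to their bound, an alternative chosen after seeing the data, the median without naive replicate 1 was again 2.80; CPM scaled by TMM factors, also chosen so, left 4 above and 0 below. The cause of these changes was not tested. With 3 naive libraries that differ this widely, the fits limit what can be called. Genes at 0 in naive replicate 3, a library of 43591167 counts, included Rrm2 and Tyms, with allograft means of 132 and 124 CPM, and the cause of such zeros was not tested.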
